A study of Mus musculus with 10 samples.

Results

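The genes described here are those of the PYHIN proteins and Phf11d, followed through primary murine keratinocytes and CD8+ T cells that were cultured apart or together. Members were found by name in all 10 gene tables. Of 7 listed names, 6 were present among 25814 genes, namely Ifi204, Mnda, Aim2, Ifi203, Mndal and Phf11d. No row carried the name Pyhin1. RefSeq gives Pyhin1 as an older name of Ifi209, whose row was found, and Ifi209 is therefore described among the other family genes, a choice made after its values had been seen. The list was drawn up with the keratinocyte values of these libraries in view, and Ifi204, Mnda and Mndal also belong to the genes that the study itself picked for their change in keratinocytes. Differences between both keratinocyte groups are therefore given for the members as a description and without a test.

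PYHIN proteins carry a pyrin domain, through which they bind other proteins, in most cases together with an HIN domain, which binds DNA. AIM2 is the member known to recognize double-stranded DNA in the cytosol and to assemble an inflammasome with the adaptor ASC and caspase-1, whereas Ifi204, Mnda, Mndal and Ifi203 encode mostly nuclear proteins of the same family. Many of these genes are induced by interferons, and in the mouse they form a cluster that has expanded by gene duplication. Phf11d encodes a protein with a PHD finger, a zinc-binding fold found in many chromatin proteins, and lies on another chromosome beside its own close relatives.

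Keratinocytes came from the tail skin of grown mice (C57/B6 in the study's methods) and were cultured alone or together with CD8+ T cells, which were washed off before the keratinocytes were collected. CD8+ T cells were purified from spleen with microbeads and stimulated with αCD3/CD28 Abs for a day. They were collected after activation, after a further culture in keratinocyte medium, or after co-culture with keratinocytes. The labels name keratinocyte medium for the second of these groups, whereas the study's methods describe a mix of that medium with X-vivo medium. The labels give 1 d for the culture that followed activation, and the deposited design gives 1 h for the co-culture. The labels give no allele or transgene for the 5 groups, and each group holds 2 libraries. The number of animals behind a library is not given in the sources used here, so that p-values measure only the spread between these libraries. The libraries held 12864931 to 18019609 exon reads each, and replicate counts of a group differed by 94.2 to 209 times the sampling noise (mean chi-square per degree of freedom), so that no library was a copy of another.

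The labelled cell types were checked against their markers. The summed level of 10 keratinocyte markers was 14217 to 18952 RPKM (reads scaled to exon length and to the mapped reads of the library) in keratinocyte libraries and 10.3 to 107 RPKM in T-cell libraries. Of these markers, 9 or 10 had reads in each keratinocyte library and 7 to 9 in each T-cell library. Among T cells their sum was highest in co-culture (107 and 58.9 RPKM in replicates 1 and 2, against 10.3 to 25.9 RPKM in the other T-cell groups). T-cell markers were not absent from keratinocyte libraries. All 8 of them had reads in every keratinocyte library, and their summed level was 112 (replicate 1) and 433 RPKM (replicate 2) in keratinocytes alone, 141 (replicate 1) and 764 RPKM (replicate 2) in co-cultured keratinocytes, and 894 to 1897 RPKM in T-cell libraries. The sum of Cd8a and Cd8b1, which define CD8+ T cells, was only 0.224 to 3.16 RPKM in keratinocyte libraries, against 251 to 1096 RPKM in T-cell libraries. The sum of Cd4 and Cd40lg was 12.5 to 95.5 RPKM in keratinocyte libraries and 18.9 (replicate 1) and 115 RPKM (replicate 2) in activated T cells. It was 70.7 to 84.5 RPKM in T cells in keratinocyte medium and 67.6 to 69.0 RPKM in co-cultured T cells. In bulk RNA, fewer cells of a type cannot be told apart from less RNA per cell.

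All 5 PYHIN members lie on chromosome 1 of GRCm38 within a stretch that holds 8 other genes of the family. From left to right, Aim2 (ENSMUSG00000037860) covers chr1:173350879-173466040 on the plus strand and Ifi204 (ENSMUSG00000073489) chr1:173747293-173766943 on the minus strand. Mndal (ENSMUSG00000090272) covers chr1:173849126-173942491 on the minus strand, and the whole of Mnda (ENSMUSG00000026536, chr1:173896345-173913046, minus strand) lies within its span. Ifi203 (ENSMUSG00000039997) covers chr1:173920407-173942672 on the minus strand, and 37 exonic bases belong to both Ifi203 and Mndal. The gene that the tables call Mnda carries the symbol Ifi211 in GENCODE vM21. Phf11d (ENSMUSG00000068245) covers chr14:59347407-59365470 on the minus strand, next to Phf11a, Phf11b and Phf11c. Within 500 kb of the members, 28 genes of chromosome 1 outside the family were found in the tables, and 0 of them reached a mean of 5 RPKM in any group. On chromosome 14, 2 of 9 such genes did so, namely Rcbtb1 (2.87 and 3.65 RPKM in keratinocytes alone and co-cultured, 9.56 to 10.6 RPKM in the T-cell groups) and Cab39l (16.2 and 17.2 RPKM in keratinocytes, 11.1 to 14.2 RPKM in the T-cell groups).

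**Figure D1:**
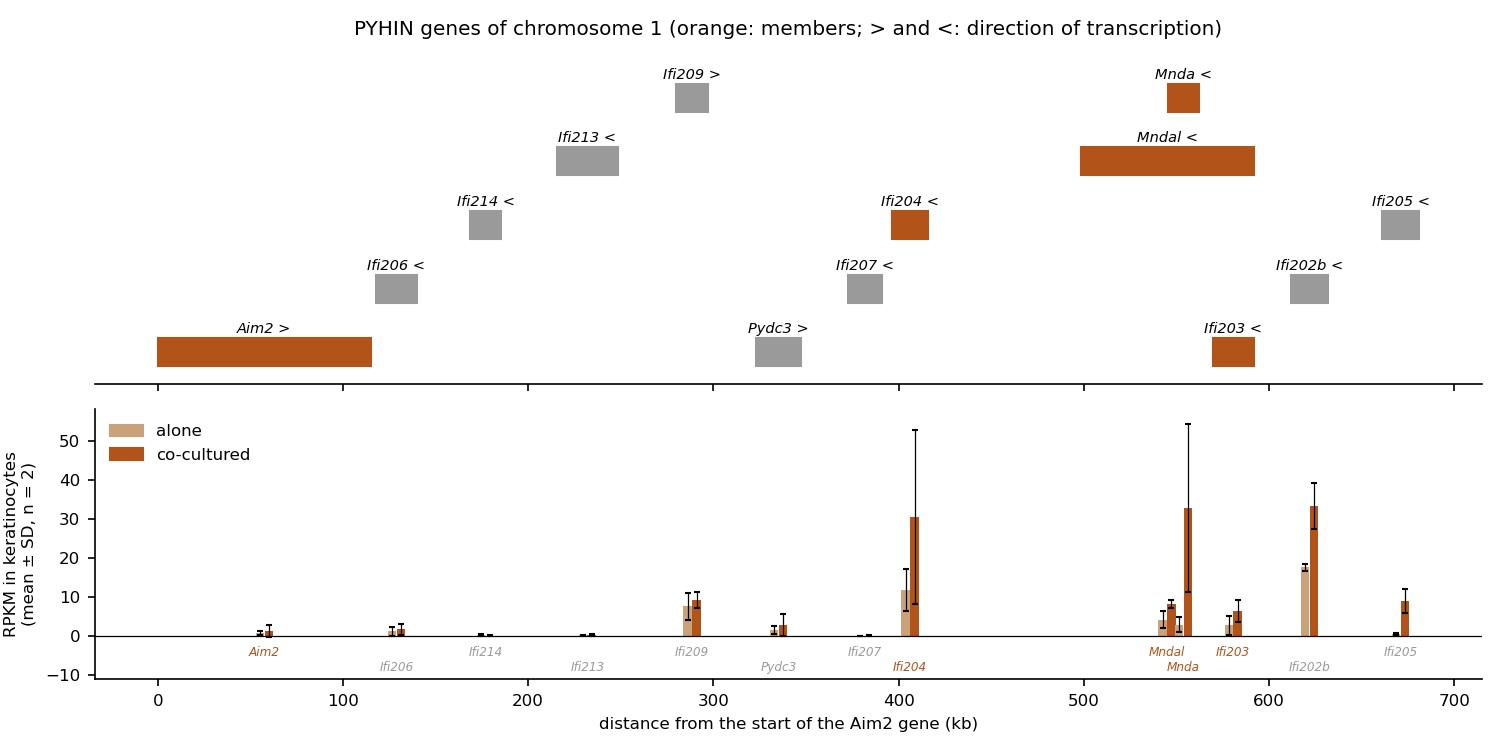
The upper panel maps the PYHIN genes of chromosome 1 as boxes by their distance from the start of the Aim2 gene (kb), and the lower panel gives the mean RPKM of each gene in keratinocytes alone and in co-cultured keratinocytes (error bars, SD, n = 2). The tallest co-culture bars are those of Ifi204, Mnda and Ifi202b (30.4, 32.8 and 33.3 RPKM), whereas Aim2 at the other end of the cluster stays at 1.31 RPKM.

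Members resemble each other and their relatives over stretches longer than a read, and this bears on every value of Mnda. Of all different 59-base windows, the length of the sequenced reads, in the protein-coding transcripts of Mnda, 69.3% also occur in a transcript of another gene of GENCODE vM21, in 43.0% Ifi205, in 27.2% Ifi204 and in 14.2% Mndal. The share was 26.1% for Ifi204, 24.9% for Mndal, 12.7% for Ifi203, 10.9% for Phf11d and 0% for Aim2. The longest identical run between coding sequences was that of Mnda and Ifi205, with 495 bases, followed among the members by Ifi204 and Mnda with 223 bases. Phf11d shares coding runs of up to 124 bases with Phf11c, 89 bases with Phf11a and 84 bases with Phf11b. The first 90 bases of both Mnda runs and the whole of that with Phf11b, the relative with the highest level in T cells, are printed in sense direction, since a read that falls into them cannot be assigned to a single gene.
Mnda and Ifi205, coding bases 612 to 701 of Mnda: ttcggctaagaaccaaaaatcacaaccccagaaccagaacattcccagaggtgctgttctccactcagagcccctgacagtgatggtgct
Mnda and Ifi204, coding bases 201 to 290 of Mnda: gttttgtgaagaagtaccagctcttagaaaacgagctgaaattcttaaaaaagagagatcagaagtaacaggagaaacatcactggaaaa
Phf11d and Phf11b, coding bases 106 to 189 of Phf11d: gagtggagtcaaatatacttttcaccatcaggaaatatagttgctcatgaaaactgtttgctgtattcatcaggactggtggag

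The deposited counts show the same ambiguity. Over all 10 libraries, 6.93% of 2467 exon reads of Mnda and 12.4% of 9610 exon reads of Ifi203 were uniquely mapped, and the values of both genes are therefore uncertain. The uniquely mapped share was 97.9% for Aim2, 74.7% for Mndal, 74.6% for Ifi204 and 68.6% for Phf11d. Ifi203 had the wider gap between both measures, since 12.7% of its windows but most of its reads were not unique, and the reason was not tested. For Phf11d the share depended on the cell type. It was 80.3% of 907 reads in keratinocyte libraries and 16.7% of 204 reads in T-cell libraries, in which Phf11b, a gene with shared sequence, was expressed at 12.1 to 62.6 RPKM. Most of the reads given to Phf11d in T cells can thus not be told apart from those of its relatives.

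**Figure D2:**
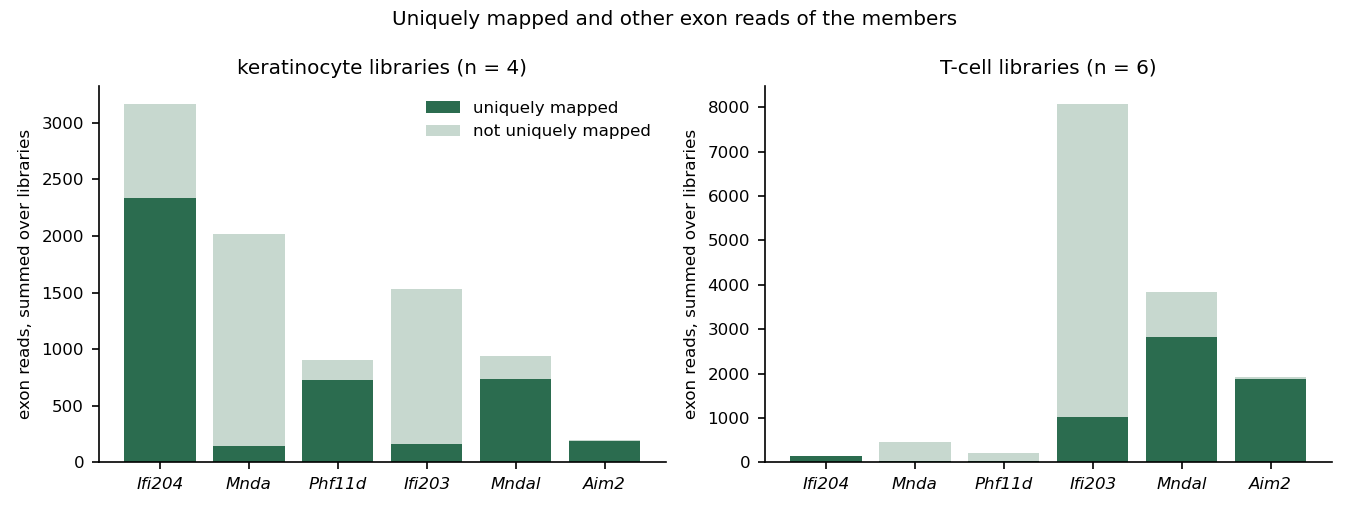
Stacked bars give the exon reads of each member summed over the 4 keratinocyte libraries (left) and the 6 T-cell libraries (right), divided into uniquely mapped reads (dark) and reads that were not uniquely mapped (light). Mnda and Ifi203 are almost entirely light in both cell types, Aim2 is dark, and Phf11d is mostly dark in keratinocytes (728 of 907 reads) and mostly light in T cells (34 of 204 reads).

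The regions around the annotated starts were read from RefSeq (GRCm38.p6), which held a window of 300 bases for 5 of the 6 members and for all 11 other genes of both families, and none for Ifi204. For Aim2 and Mndal these starts lie far inside the gene spans given above, and not where those spans begin in the direction of transcription. The interferon-stimulated response element (ISRE) was searched by its core, the letters GAAA, any 2 bases and GAAA again, and the γ-activated site by TTCNNNGAA, on both strands. The ISRE core occurred in 3.44% of all 32851 windows (3.99% of 27025 genes, in any of their windows) and in the windows of 3 members, Mnda, Mndal and Ifi203. It also occurred in 6 of 8 other PYHIN genes and in 2 of 3 other Phf11 genes, without any match in Aim2 and Phf11d. In 7 genes of the cluster, Ifi203 and Mndal included, the letters were the same, GAAATCGAAA. The γ-activated site occurred in 8.30% of all windows (9.55% of genes) and in 0 of the 5 members, and in both families only the window of Ifi202b held it. The window of Phf11d held a related repeat with a gap of 1 base, GAAANGAAA, which was searched after the window had been seen and occurred in 3.17% of all windows (3.70% of genes). Matches are letters and not proven sites. The stretch from 120 bases before to 30 bases after the start is printed for the members with a match and for Aim2, with ISRE cores and the related repeat in capitals.
Mnda (Ifi211), chr1:173913017-173913166, minus strand: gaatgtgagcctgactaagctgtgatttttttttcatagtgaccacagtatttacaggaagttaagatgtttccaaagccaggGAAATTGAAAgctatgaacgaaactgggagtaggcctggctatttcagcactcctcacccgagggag
Mndal, first start, chr1:173880158-173880307, minus strand: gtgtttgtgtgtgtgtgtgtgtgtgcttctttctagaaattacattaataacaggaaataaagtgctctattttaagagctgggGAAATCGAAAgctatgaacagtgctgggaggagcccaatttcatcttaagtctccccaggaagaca
Mndal, second start, chr1:173879929-173880078, minus strand: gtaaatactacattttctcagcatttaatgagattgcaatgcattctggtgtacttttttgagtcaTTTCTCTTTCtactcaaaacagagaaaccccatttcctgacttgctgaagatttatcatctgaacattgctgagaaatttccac
Ifi203, second start, chr1:173942463-173942612, minus strand: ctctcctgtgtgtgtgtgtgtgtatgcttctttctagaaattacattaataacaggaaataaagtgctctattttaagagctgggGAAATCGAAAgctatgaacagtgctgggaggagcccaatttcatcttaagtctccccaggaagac
Phf11d, chr14:59365461-59365610, minus strand: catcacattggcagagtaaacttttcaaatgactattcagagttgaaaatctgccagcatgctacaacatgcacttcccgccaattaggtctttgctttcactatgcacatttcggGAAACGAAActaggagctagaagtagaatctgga
Aim2, chr1:173420484-173420633, plus strand: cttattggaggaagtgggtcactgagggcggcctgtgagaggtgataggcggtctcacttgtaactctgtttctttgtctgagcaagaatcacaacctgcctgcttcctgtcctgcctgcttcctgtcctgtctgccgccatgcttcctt

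The window of the first Mndal start and that of Ifi203 were identical over 139 bases, the ISRE core included. The core lay 36 to 27 bases before the first start of Mndal, 35 to 26 bases before the second start of Ifi203 and 37 to 28 bases before the start of Mnda. A core with other letters on the opposite strand, TTTCTCTTTC, lay 54 to 45 bases before the second start of Mndal. The repeat of Phf11d spanned its annotated start.

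**Figure D3:**
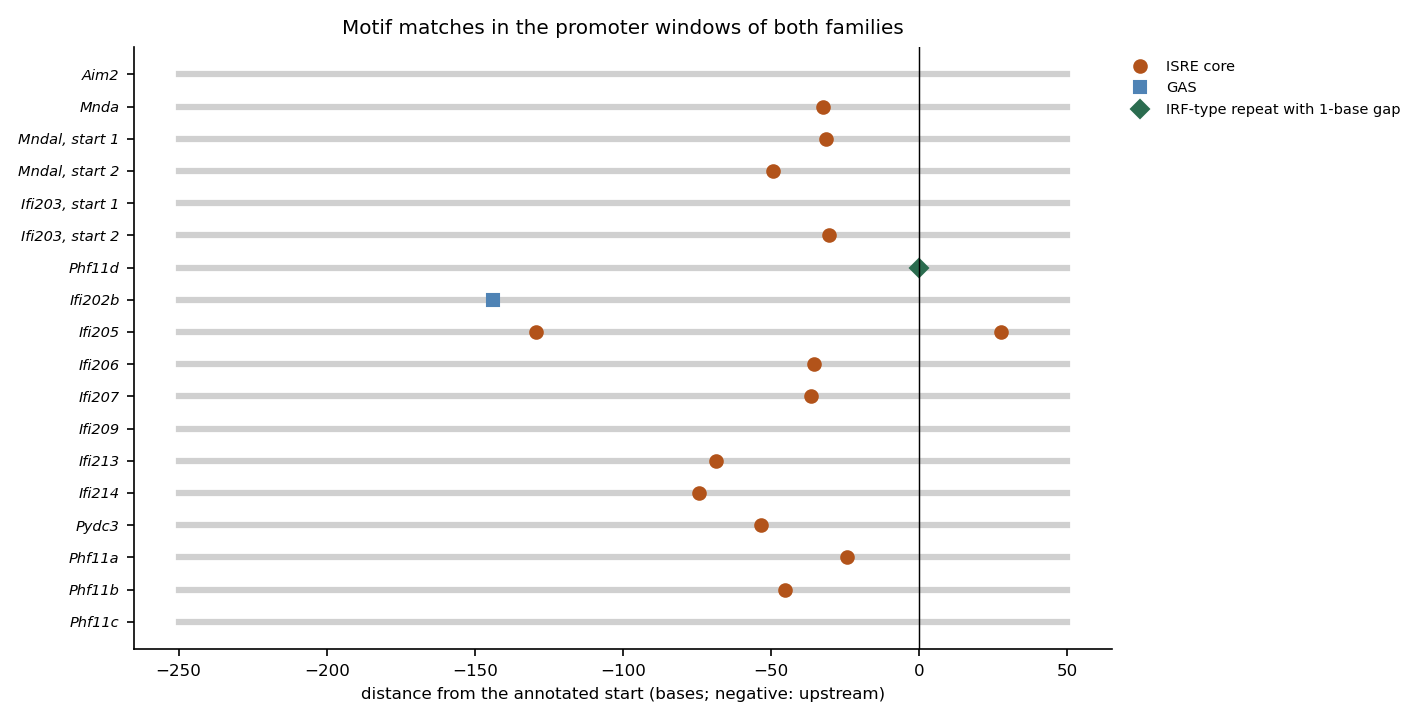
Points mark matches of 3 motifs within the windows of both gene families (grey lines, 250 bases before to 50 bases after each annotated start; x axis, distance from the start in bases). ISRE cores lie at similar distances before the start in Mnda, Mndal and Ifi203, the repeat of Phf11d covers its start, and the lines of Aim2, Ifi209, Phf11c and the first start of Ifi203 are empty.

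Phf11d had the largest ratio between both keratinocyte groups among the members. Its level was 0.223 RPKM (replicate 1) and 0.248 RPKM (replicate 2) in keratinocytes alone and 12.9 RPKM (replicate 1) and 7.01 RPKM (replicate 2) in co-cultured keratinocytes. These groups did not overlap, and their means were 0.236 ± 0.0181 and 9.94 ± 4.15 RPKM (SD, n = 2), a ratio of 42.2. In keratinocytes alone the value rested on 12 exon reads in each library, of which 9 and 6 were uniquely mapped, and in co-cultured keratinocytes on 555 and 328 exon reads, of which 447 and 266 were uniquely mapped. Reads across exon junctions made up 45.6% of its 883 reads in the co-culture. Its log2 fold change was 5.44 (SE 0.50) by exon reads and 5.81 by uniquely mapped reads only.

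Mnda, like Ifi204 a gene of the family's nuclear group, had 4.25 and 1.61 RPKM in keratinocytes alone and 48.0 and 17.6 RPKM in co-cultured keratinocytes (replicates 1 and 2). Both co-cultured libraries stood above every other library of the series, in which the highest value was 5.63 RPKM. The means were 2.93 ± 1.87 and 32.8 ± 21.5 RPKM (SD, n = 2), and the ratio was 11.3 within replicate number 1 and 10.9 within replicate number 2. Only 9 and 2 uniquely mapped reads were counted in keratinocytes alone and 110 and 24 in co-cultured keratinocytes, and the log2 fold change was 3.54 (SE 0.71) by all and 3.87 by uniquely mapped exon reads. Ifi205, which shares the longest coding run with Mnda, had 0.425 and 0.765 RPKM in keratinocytes alone and 11.3 and 6.88 RPKM in co-cultured keratinocytes, and 51.7% of its reads in keratinocytes were uniquely mapped. What each of both genes contributed to their common reads was not tested.

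Ifi204 was expressed in keratinocytes of both groups. Its level was 15.7 and 8.11 RPKM in keratinocytes alone and 46.2 and 14.6 RPKM in co-cultured keratinocytes (replicates 1 and 2). Replicate 1 was the higher library in both groups, and the groups overlapped. The ratio was 2.94 within replicate number 1 and 1.80 within replicate number 2. The means were 11.9 ± 5.36 and 30.4 ± 22.3 RPKM (SD, n = 2), with a log2 fold change of 1.40 (SE 0.62) that was 0.44 without replicate 1 of the co-cultured keratinocytes. In T cells Ifi204 was low, with 0.0564 to 1.45 RPKM over all 6 libraries, and the lowest value rested on 2 reads.

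Mndal had 2.68 and 5.71 RPKM in keratinocytes alone and 8.99 and 7.58 RPKM in co-cultured keratinocytes (replicates 1 and 2). The groups did not overlap, but the ratio was 3.36 within replicate number 1 and 1.33 within replicate number 2. Ifi203, the neighbour with a common promoter sequence, had 1.08 and 4.48 RPKM in keratinocytes alone and 4.41 and 8.50 RPKM in co-cultured keratinocytes, and these groups overlapped. Here replicate 2 was the higher library of both groups, and the ratio was 4.10 within replicate number 1 and 1.90 within replicate number 2. The log2 fold changes were 1.04 (SE 0.49) for Mndal and 1.29 (SE 0.80) for Ifi203.

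Aim2, the cytosolic DNA receptor, was low in replicate 1 of both keratinocyte groups, with 19 exon reads alone and 11 in co-culture. Its level was 0.345 and 1.15 RPKM in keratinocytes alone and 0.249 and 2.38 RPKM in co-cultured keratinocytes (replicates 1 and 2), where 3 reads correspond to 0.0544 to 0.0680 RPKM. The groups overlapped and the pairs went in opposite directions, with ratios of 0.723 within replicate number 1 and 2.06 within replicate number 2. The log2 fold change of 0.92 (SE 1.27) was -1.60 without replicate 2 of the co-cultured keratinocytes.

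Thus 3 of 6 members, Mnda, Mndal and Phf11d, were higher in both co-cultured keratinocyte libraries than in both libraries of keratinocytes alone, and 0 were lower. The same held for 19.8% of 12515 genes fitted, with 24.3% lower, and nothing is read from the members' count, since they were chosen on this comparison. The median log2 fold change was 1.34 over the members and 0.02 over all genes. Across all genes edgeR called 0 at an adjusted p under 0.05 (901 at an unadjusted p under 0.05), whereas DESeq2 called 88 higher and 98 lower.

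**Figure D4:**
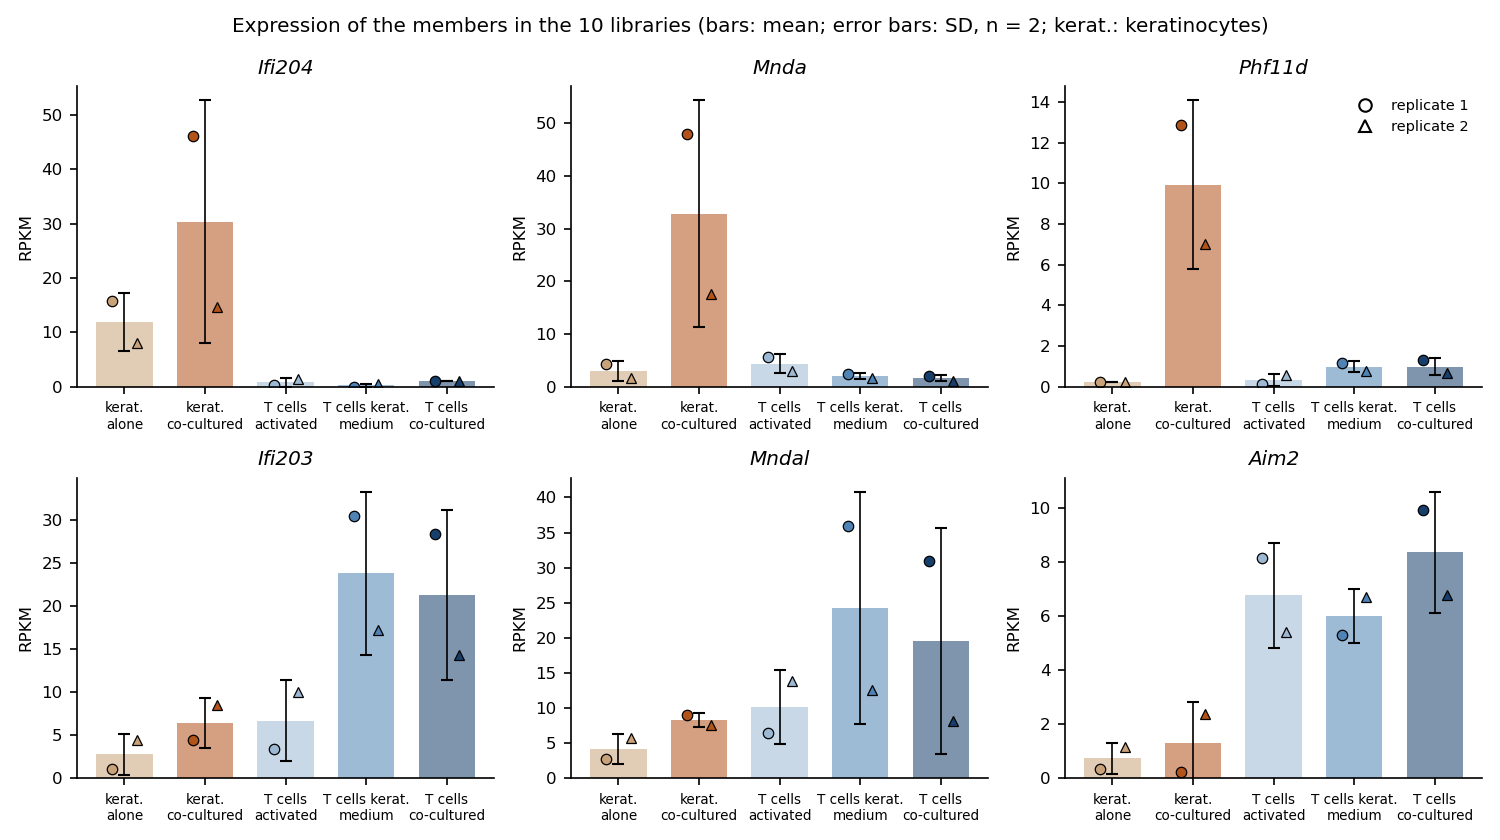
Each panel shows a member, with RPKM on the y axis, bars for the mean of a group, error bars for the SD (n = 2) and symbols for the libraries. The co-cultured keratinocytes stand above all other groups for Mnda and Phf11d, Ifi204 is high in keratinocytes only, Aim2 is high in T cells only, and Ifi203 and Mndal peak in T cells that were cultured beyond activation.

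The amount of T-cell RNA computed for the keratinocyte libraries depended on the markers used. By the 8 T-cell markers, it amounted to 16.2% of that in co-cultured T cells for keratinocytes alone and to 26.9% for co-cultured keratinocytes, whereas by Cd8a and Cd8b1 the shares were 0.111% and 0.293%. At the higher shares, T cells with the levels of the co-cultured T cells would carry 0.295 RPKM of Ifi204, 0.427 RPKM of Mnda and 0.268 RPKM of Phf11d into co-cultured keratinocytes, against measured means of 30.4, 32.8 and 9.94 RPKM. For Ifi203 they would carry 5.73 of 6.45 RPKM and for Mndal 5.25 of 8.29 RPKM. For Aim2 the computed 2.25 RPKM exceeded the measured 1.31 RPKM, and also in keratinocytes alone it was larger (1.35 against 0.749 RPKM). Both T-cell markers and Aim2 were higher in replicate 2 than in replicate 1 of both keratinocyte groups. At the lower share, by Cd8a and Cd8b1, they would carry 0.0246 RPKM of Aim2, 0.0625 RPKM of Ifi203 and 0.0573 RPKM of Mndal into co-cultured keratinocytes, and all 6 members were higher in co-culture after its subtraction. The part of T-cell RNA in the keratinocyte values of Aim2, Ifi203 and Mndal was not tested further. No T cells were added to keratinocytes alone. Whether the marker RNA came from cells with the levels of co-cultured T cells was not tested. The share of co-cultured keratinocytes by the 8 markers averages sums of 141 and 764 RPKM (replicates 1 and 2).

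In T cells the order of the levels was different. Ifi203 had its highest means in T cells in keratinocyte medium (23.8 ± 9.45 RPKM) and in co-cultured T cells (21.3 ± 9.85 RPKM), against 6.68 ± 4.68 RPKM in activated T cells (SD, n = 2 each). Its libraries gave 3.37 and 9.99 RPKM after activation, 30.5 and 17.2 RPKM in keratinocyte medium and 28.3 and 14.3 RPKM in co-culture. Both later groups lay above the activated T cells without overlap, but overlapped each other. Scaled by the uniquely mapped share, its level was highest in co-cultured T cells (2.85 RPKM, against 2.51 RPKM in keratinocyte medium).

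Mndal followed a similar order, with 6.43 and 13.9 RPKM in activated T cells, 35.9 and 12.6 RPKM in keratinocyte medium and 30.9 and 8.16 RPKM in co-culture. The first library of both later groups was high and the second overlapped with activated T cells. Over all 10 libraries the log2 levels of Ifi203 and Mndal had a Pearson r of 0.91, a description of libraries from 2 cell types. Aim2 had 8.16 and 5.40 RPKM in activated T cells, 5.31 and 6.73 RPKM in keratinocyte medium and 9.95 and 6.79 RPKM in co-culture, and the T-cell groups next to each other in the order of its means overlapped. All 6 T-cell libraries exceeded the 4 keratinocyte libraries for Aim2, and the converse held for Ifi204.

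Mnda was lower in both later groups than in activated T cells, with 5.63 and 3.07 RPKM after activation, 2.50 and 1.69 RPKM in keratinocyte medium and 1.99 and 1.19 RPKM in co-culture. Its uniquely mapped reads were 0 in 3 of the 6 T-cell libraries and 16 at most. A count of 0 allows for up to 3 reads. Ifi205, which shares sequence with Mnda, was also lower in both later groups. Phf11d had 0.126 and 0.563 RPKM in activated T cells and 0.698 to 1.30 RPKM in both later groups, with 0 to 14 uniquely mapped reads per library.

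Did the members differ between the T-cell groups? Both later groups differ from activated T cells by the further culture as well as by the medium or the keratinocytes. These parts cannot be told apart here. All 6 members passed the filter on low counts, and edgeR's quasi-likelihood test over 11863 genes called 0 of them at an adjusted p under 0.05 for T cells in keratinocyte medium against activated T cells. There, 2.32% of all genes were called higher and 4.22% lower. For co-cultured against activated T cells it also called 0 members, beside 4.59% of all genes higher and 5.72% lower. For co-cultured T cells against T cells in keratinocyte medium it called 0 members, with 0.261% of all genes higher and 0% lower. At an unadjusted p under 0.05 these counts were 1, 1 and 0, and in both cases the member was Ifi203. Of all 11863 genes, 2969, 3415 and 409 passed that threshold in edgeR. The first 2 comparisons share the activated T cells. Libraries of T cells in keratinocyte medium lay above those of activated T cells without overlap for Ifi203 and Phf11d (22.1% of all genes) and below them for Mnda (32.5% of all genes). The same members did so in co-culture against activation, where the shares of all genes were 23.6% and 33.9%. For Phf11d the order turned when RPKM was scaled by the uniquely mapped share, with means of 0.192 RPKM after activation, 0.114 RPKM in keratinocyte medium and 0.0926 RPKM in co-culture. Co-cultured T cells lay above T cells in keratinocyte medium for Ifi204 and Aim2 (14.2% of all genes) and below them for 0 members (13.1% of all genes).

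Ifi203 came closest to the threshold. Its log2 fold change was 1.94 (SE 0.57) in keratinocyte medium, with an adjusted p of 0.0841 in edgeR, and 1.81 (SE 0.57) in co-culture, with an adjusted p of 0.0830 in edgeR. DESeq2 called it in both comparisons (adjusted p of 0.00720 and 0.0114). By uniquely mapped reads only, its log2 fold changes were 1.10 and 1.31 and were not called. Without replicate 2 of the activated T cells, the library with more Cd4 and Cd40lg, edgeR called Ifi203 in both comparisons (adjusted p of 0.0392 and 0.0302 in edgeR), with a log2 fold change of 2.87 in the second. Without replicate 1 of the activated T cells the log2 fold changes were 1.35 and 1.22 (adjusted p of 0.269 and 0.274 in edgeR). Over all libraries left out in turn they ranged from 1.35 to 3.0 in keratinocyte medium and from 1.22 to 2.87 in co-culture. Between both later T-cell groups its log2 difference was -0.12 (SE 0.55).

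For the other members the log2 fold changes in keratinocyte medium against activated T cells were 1.63 (SE 0.99) for Phf11d, 1.35 (SE 0.70) for Mndal, -0.01 (SE 0.40) for Aim2, -0.91 (SE 0.61) for Mnda and -1.58 (SE 1.30) for Ifi204. In co-culture against activated T cells they were 1.67 (SE 0.99) for Phf11d, 1.06 (SE 0.70) for Mndal, 0.49 (SE 0.40) for Aim2, -1.27 (SE 0.61) for Mnda and 0.50 (SE 1.24) for Ifi204. None of these passed the test in edgeR, and single libraries turned some directions. Mndal in co-culture was at -0.04 without replicate 1 of the co-cultured T cells. Ifi204 was at -0.24 in co-culture without replicate 1 of the activated T cells, and at 0.11 in keratinocyte medium without their replicate 2. The largest difference between both later groups was that of Ifi204, with 2.08 (SE 1.31), on 20 reads in keratinocyte medium and 74 reads in co-culture. The median over the members was 0.67, 0.78 and -0.04 in the 3 comparisons, and -0.01 over all genes in each of them.

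**Figure D5:**
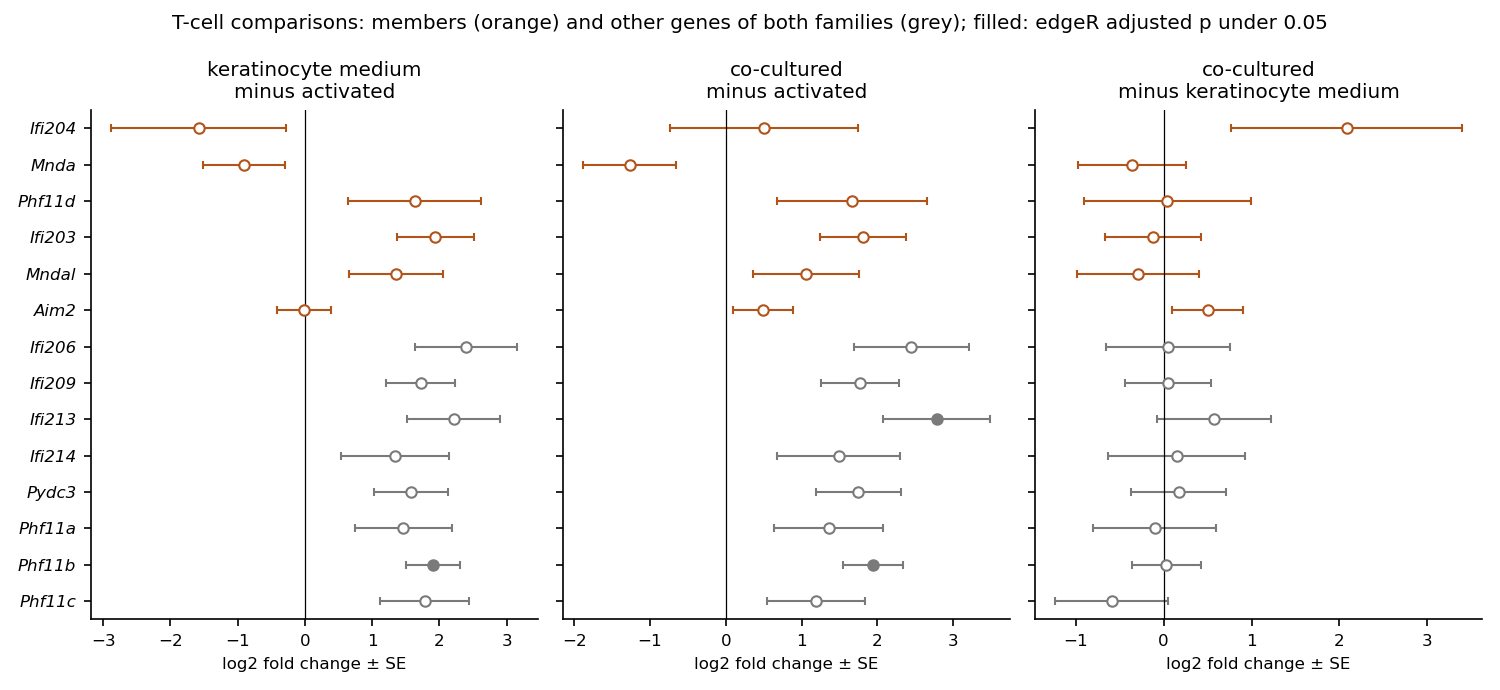
Points give log2 fold changes with their SE in 3 comparisons of T-cell groups (n = 2 per group) for the members (orange) and other genes of both families (grey), and filled points passed edgeR's test at an adjusted p under 0.05. No member is filled, Phf11b is filled in the first 2 panels and Ifi213 in the second, and in the third panel Ifi204 lies farthest from 0 (2.08). Ifi205 and Ifi207, both lower in the later groups than in activated T cells, are not drawn because of libraries without reads. Ifi202b is not drawn because of too few reads.

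Among the other PYHIN genes, 7 of 8 passed the filter in T cells. In co-cultured against activated T cells 1 of these 7 was called higher, Ifi213, beside 4.59% of all genes. Ifi213 had 4.22 and 4.06 RPKM in co-culture against 0.239 and 1.11 RPKM after activation (log2 fold change of 2.78, SE 0.70, adjusted p of 0.0444 in edgeR). None was called in the other comparisons. Ifi209, the gene with the older name Pyhin1, had 4.21 and 9.59 RPKM after activation, 22.9 and 19.0 RPKM in keratinocyte medium and 29.8 and 13.1 RPKM in co-culture (adjusted p of 0.0841 and 0.0642 in edgeR against activation). The order of its T-cell levels resembled that of Ifi203 and Mndal, whereas in keratinocytes its means were 7.60 ± 3.45 RPKM alone and 9.28 ± 1.98 RPKM in co-culture (SD, n = 2), with overlap. Ifi206 had 1.19 and 4.68 RPKM after activation and 7.82 to 21.4 RPKM in the later T-cell groups, and was not called. Of the 7 genes, 5 lay above activated T cells without overlap in keratinocyte medium and 2 below (22.1% and 32.5% of all genes). In co-culture these counts were 4 and 2 (23.6% and 33.9% of all genes). The 2 genes below were Ifi205 and Ifi207 in each case. Ifi205 had 1.73 and 1.38 RPKM after activation and 0 to 0.326 RPKM later. Ifi207 had 0.278 and 0.487 RPKM and then 0 to 0.151 RPKM. Ifi202b, whose reads were all uniquely mapped, was a gene of keratinocytes with 18.3 and 17.0 RPKM alone and 37.4 and 29.1 RPKM in co-culture, and had 0 reads in 5 of 6 T-cell libraries, which allows for up to 3 reads in each.

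Of the 3 other Phf11 genes, Phf11b rose in T cells after activation. It had 12.1 and 22.5 RPKM in activated T cells, 57.6 and 60.6 RPKM in keratinocyte medium and 62.6 and 54.6 RPKM in co-culture. Both log2 fold changes, 1.91 (SE 0.40) and 1.94 (SE 0.40), passed edgeR's test (adjusted p of 0.0342 and 0.0236). In these comparisons 2.32% and 4.59% of all genes were called higher. Markers of cell types differed between the same groups. The sum of Cd8a and Cd8b1 was 251 to 454 RPKM after activation and 536 to 1096 RPKM in the later groups, and that of the 8 T-cell markers 894 to 1441 RPKM and 1543 to 1897 RPKM. The sum of 6 B-cell markers was 31.0 to 33.1 RPKM after activation, 45.5 to 93.5 RPKM in keratinocyte medium and 17.0 to 27.6 RPKM in co-culture, and that of 7 myeloid markers 15.3 to 67.4 RPKM, 46.2 to 49.5 RPKM and 39.5 to 54.1 RPKM. Their part in the values of the members, of Phf11b and of Ifi213 was not tested. Phf11a and Phf11c were not called. In keratinocytes Phf11b had 3.20 and 8.58 RPKM alone and 3.89 and 19.2 RPKM in co-culture, with replicate 2 high in both groups, and 49.6% of its reads were uniquely mapped there. Within the family, groups of keratinocytes did not overlap only for Phf11d.

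Partners of AIM2 and other genes of DNA sensing formed a list of 14 genes, of which 13 passed the filter in T cells and 0 were called in any of the 3 T-cell comparisons by edgeR. In keratinocytes 6 of 12 that passed the filter were higher in both co-cultured libraries and 1 was lower, where 19.8% of all genes were higher and 24.3% lower, and their median log2 fold change was 0.58. Casp1, the protease of the inflammasome, had a mean of 9.56 ± 5.40 RPKM alone and 25.1 ± 5.67 RPKM in co-culture, whereas Pycard, which encodes ASC, had 31.2 ± 21.1 and 37.2 ± 23.1 RPKM. Zbp1, a sensor of nucleic acids, had 2.41 ± 2.16 and 31.2 ± 14.4 RPKM. Il18, a cytokine matured by caspase-1, was lower in co-culture, with 43.7 ± 21.9 and 10.6 ± 2.98 RPKM (SD, n = 2 for each of these means). The study had picked several of these genes on the same libraries, and none was tested here in keratinocytes.

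The list of interferon signalling held 18 genes, of which 17 passed the filter. In keratinocytes 8 of these were higher and 4 lower in both co-cultured libraries, beside the same 19.8% and 24.3% of all genes, and their median log2 fold change was 1.01. Irf1, a transcription factor induced by interferon-γ, had 4.45 ± 1.79 RPKM alone and 60.3 ± 2.82 RPKM in co-culture, and Irf7, a factor of the type I interferon response, had 2.06 ± 0.109 and 15.3 ± 1.99 RPKM (SD, n = 2). In T cells the same 3 genes were called in both comparisons with activation, 1 higher and 2 lower. Of all genes, 2.32% were called higher and 4.22% lower in keratinocyte medium, and 4.59% and 5.72% in co-culture. Ifng, the gene of interferon-γ, fell from 601 ± 16.5 RPKM after activation to 6.57 ± 0.883 RPKM in keratinocyte medium and 4.73 ± 2.08 RPKM in co-culture (log2 fold changes of -6.36 and -6.77, adjusted p of 0.00345 and 0.00162 in edgeR). Irf8 fell as well, and Ifnar2, a chain of the type I interferon receptor, rose. Between both later T-cell groups edgeR called 0 genes of the list.

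The genes whose levels were most like those of a member were sought among 8744 genes with a mean of 5 RPKM or more in a group, by the Pearson r of log2(RPKM + 1) over the 10 libraries. These values describe libraries of 2 cell types and carry no p. Phf11d was closest to Il18bp (0.967), Apol9b (0.960) and Serping1 (0.959). Among the genes closest to Mnda were Ifi205 (0.948), with which it shares reads, and Cxcl9 (0.940). Ifi204 was closest to Pdpn (0.982), Nppb (0.982) and Cldn7 (0.981), and Aim2 to Parvg (0.987), Sh2d2a (0.979) and Stap1 (0.979). Ifi203 was closest to Frat2 (0.983), Rbm43 (0.981) and Gdi2 (0.975), and Mndal to Trim12c (0.941), Gnai2 (0.934) and Card6 (0.926). Among the members themselves r ranged from -0.91 between Ifi204 and Aim2 to 0.91 between Ifi203 and Mndal.

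Reads within introns separated the members as well. Aim2 had 222 intronic beside 575 exonic reads in T cells in keratinocyte medium and 52 beside 624 in activated T cells, and Mndal had 319 beside 1779 and 175 beside 710. Mnda had at most 19 intronic reads in any group, and Phf11d at most 10. The span of Mndal includes the whole of Mnda and most of Ifi203, and all of them lie on the minus strand. Their reads can thus not be told apart by strand, and whether the counting used strand is not given in the sources used here. Ifi203 had 3871 exonic reads in T cells in keratinocyte medium and 1012 in activated T cells. The part of Mnda and Ifi203 in the intronic reads of Mndal was not tested.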

How the data were processed

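RNA of 10 libraries (2 for each of 5 groups) was analysed. The authors used an NEBnext Ultra II kit, read 59 bases from a single end and aligned these reads to GRCm38 with the CLC Genomics Workbench. They deposited, for each gene and library, counts of total and uniquely mapped reads on exons, exon junctions and introns, without normalization, and RPKM values, written with decimal commas. Groups were taken from the labels. Among the T-cell groups, only the activated one has replicate numbers in its labels, and those of the others were assigned here. Members and gene lists were chosen with earlier results of these data known.

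For tests on exon reads edgeR 4.0.16 was used (R 4.3.3), with filterByExpr, TMM scaling, glmQLFit and glmQLFTest, and p-values were adjusted over all genes by Benjamini-Hochberg (threshold 0.05). The 6 T-cell libraries were fitted together and the 4 keratinocyte libraries apart. RPKM gave levels and ratios. A member with less than 50% uniquely mapped reads was called uncertain. Genes named are all members, those of the lists that passed a test or that a sentence needs (these were chosen after their values were seen), neighbours within 500 kb with at least 5 RPKM, and the 3 genes most like each member, of which 1 is not reported here. Shared sequence came from GENCODE vM21 transcripts and promoter windows from RefSeq (GRCm38.p6). Alternatives used DESeq2 1.42.0, limma 3.58.1 on log2(RPKM + 1) or log2(RPKM + 0.1), other filters and scalings, uniquely mapped reads, other sets of libraries and each library left out. The fits and the window search were tested on simulated data. The floor of 3 reads accounts for counting error alone, because PCR copies of a molecule were not marked. Tables and plots were made with Python 3.11.15, numpy 2.4.6, pandas 2.3.3 and matplotlib 3.10.9.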

Additional observations from a re-analysis of the deposited data

How the results depend on the processing

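With 2 libraries per group, a single library decided several values. The count of members called in T cells was 0 by edgeR, but in keratinocyte medium against activated T cells it was 1 with DESeq2 (Ifi203) and 2 without a filter on low counts (Ifi203 and Mndal), and 0 to 1 when a library was left out. In co-cultured against activated T cells it was 1 with DESeq2 and 1 without a filter (Ifi203 in both), and 0 to 1 with a library left out. The libraries whose omission led to the call of Ifi203 were replicate 2 of the activated T cells in both comparisons, and either co-cultured library in the first, which is no part of that comparison but enters the estimate of the spread and the number of genes tested (12411 and 12469 in place of 11863). In co-cultured T cells against T cells in keratinocyte medium 0 members were called under all 15 alternatives. Against the 275 and 501 genes called higher and lower in the first comparison DESeq2 called 861 and 1086, against 544 and 678 in the second 1121 and 1223, and against 31 and 0 in the third 79 and 8. Without the filter these pairs were 843 and 1102, 1132 and 1293, and 123 and 18. limma on log2(RPKM + 1) called 818 and 1108 lower in the first and second comparison and 98 higher in the third. In the third, 0 genes were called with at least 10 reads in every library and 83 with all 10 libraries in a single fit. Scaling by library size moved the median log2 fold change of all genes to -0.125 and -0.172 in the first and second comparison, and in the second it called 396 higher and 762 lower. With a library left out, the calls ranged from 16 to 397 higher and 8 to 670 lower in the first comparison, from 134 to 506 higher and 132 to 625 lower in the second and from 16 to 48 higher and 0 to 4 lower in the third.

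All 6 members kept a log2 fold change above 0 in keratinocytes under the other tools, filters and scalings, by uniquely mapped reads and with the replicate number as a block. The exception was Aim2, which was not higher after subtraction of T-cell RNA by the 8 T-cell markers and without replicate 2 of the co-cultured keratinocytes, leaving 5 members. That subtraction gave no log2 ratio for Aim2 and Ifi203, because values fell below 0. For Phf11d the log2 ratio was 7.02, with remainders of 0.0743 RPKM in keratinocytes alone and 9.68 RPKM in co-culture. In keratinocytes alone 3 reads of Phf11d correspond to 0.0557 and 0.0621 RPKM (replicates 1 and 2). With a library left out, log2 fold changes ranged from 5.01 to 5.74 for Phf11d, 2.73 to 4.35 for Mnda, 0.44 to 1.94 for Ifi204, 0.58 to 2.71 for Ifi203, 0.57 to 1.72 for Mndal and -1.60 to 2.10 for Aim2. Deviations of keratinocyte libraries from their group means went together within a replicate number (r = 0.66 across 11315 genes, 2 pairs), but the labels do not tie the number to a shared batch. The replicate block gave 6 members above 0, with 5.40 for Phf11d and 3.54 for Mnda, and called 2 genes of 12515 against 0 without it. For keratinocytes edgeR called 11 genes without a filter and 4 with all 10 libraries, 107 higher and 1057 lower without replicate 1 of the co-cultured keratinocytes, 21 without their replicate 2, and 0 without either library of keratinocytes alone. Scaling RPKM by the uniquely mapped share kept the highest group for 5 of 6 members, Ifi203 being the exception. The causes were not tested.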
